A study of Homo sapiens with 9 samples.

Results

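The 42 genes described here encode proteins that copy DNA in S phase, together with the transcription factors E2F1 and E2F2 that drive such genes. They were chosen by name from a table of RefSeq transcripts, and all 42 were found among the 25801 genes of the table. They fall into 7 roles, with 10 genes for origin licensing, 6 for helicase activation, 6 for the sliding clamp and its loader, 8 for polymerases, 5 for Okazaki fragments and single-strand binding, 5 for nucleotide supply and uracil removal, and 2 for the E2F factors. The cells were MCF10A, a non-transformed line of human mammary epithelium. All groups had the same genotype, a JUN knockout into which a JUN-AID fusion protein and TIR1 had been brought by infection. AID is a degron, and TIR1 is the receptor through which the auxin indole-3-acetic acid (IAA) sends a degron-tagged protein to degradation. One group received 100 µM IAA and one the solvent DMSO. After 1 h of this treatment, both were given 100 µM 4-thiouridine (4sU) for 1 h. A control was kept without 4sU, and whether it received DMSO is not clearly stated in the labels. The JUN protein thus comes from a transgene in every group, so the controls are not cells with an intact endogenous JUN gene. Each group had 3 samples. The study calls its replicates biological, the labels do not say how they were grown, and p-values measure the spread between these samples.

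Cells take up 4sU and put it in place of uridine in new transcripts, and alkylation then makes sequencing show a C where the genome has a T. The T-to-C conversion rate gives the share of T positions with such a change, and it follows the newly made share of an mRNA, whereas the reads scaled to library size (CPM) follow its total level. The libraries were read from the 3′ ends of mRNA, so a CPM value is compared for 1 gene between libraries and not between genes. Libraries held between 18997637 and 24014195 reads. The 3 IAA columns were identical in all 56868 rows of the table, while those of DMSO with 4sU differed from each other in 35279 rows, so the IAA values were counted as 1 library and were not tested. Of 10 epithelial markers, 9 were at 10 CPM or more in every library (summed level 4031 to 5298 CPM). The other, the basal keratin KRT14, had 3.63 to 10.6 CPM. Of 12 markers of fibroblasts, endothelium, leukocytes and liver, 5 (COL1A2, VWF, CDH5, PTPRC and CD3E) had no read and 8 did not exceed 1 CPM. Their summed level was 15.6 to 23.1 CPM, led by the fibroblast markers DCN (7.19 to 14.2 CPM) and COL1A1 (3.21 to 9.82 CPM). JUN mRNA was at 48.1, 57.6 and 45.0 CPM without 4sU, at 30.2, 20.3 and 25.6 with DMSO and 4sU, and at 62.9 in the IAA library. Whether these reads came from the transgene or from the mutated endogenous gene is not known. The degron acts on the protein, so this mRNA does not check the depletion.

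DNA replication starts when the origin recognition complex (ORC), CDC6 and CDT1 load the MCM helicase onto DNA in G1 phase. In S phase, CDC45 and the GINS complex turn this helicase on, and polymerases held by the PCNA clamp copy both strands. Most of these genes are transcribed as cells approach S phase, when E2F factors are released from RB1 and its relatives.

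Promoter sequences, from 250 bases before to 50 bases after the start of transcription, were taken from RefSeq (GRCh38.p14) for 36 of the 42 genes. The others, MCM4, MCM5, GINS4, POLD3, RPA2 and RPA3, had none. Both strands were searched for the 4 E2F octamers TTTCCCGC, TTTCGCGC, TTTGCCGC and TTTGGCGC. At least 1 octamer was present in 19 of 36 promoters (52.8%), against 3.33% of 27305 promoters of all genes and 5.65% of the 9664 promoters of genes tested in total mRNA. By role, it was present in 6 of 8 promoters for origin licensing, 3 of 5 for helicase activation, 2 of 6 for clamp and loader, 4 of 7 for polymerases, 1 of 3 for Okazaki fragments and RPA, 1 of 5 for nucleotide supply and 2 of 2 for E2F1 and E2F2. Among 48 other replication genes 12 of 39 promoters held one (30.8%), and among 30 mitosis genes 2 of 24 did (8.33%). In 16 of the 19 promoters the nearest octamer began within 60 bases of the start, compared with 332 of 908 promoters with an octamer over all genes (36.6%). The CHR hexamer TTTGAA was found in 1 of 36 promoters, that of RRM1, against 17 of 24 for mitosis genes. It was found in 15.4% of all promoters and 9.89% of those of genes tested in total mRNA. The CCAAT box was found in 22 of 36 (61.1%), against 51.3% for other replication genes and 79.2% for mitosis genes. It was found in 35.7% of all promoters and 37.5% of those of genes tested in total mRNA. These matches are a description of letters and not of bound sites.

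More than 1 octamer was found in 5 promoters, those of E2F1, MCM2, MCM3, MCM6 and MCM7. The share was 13.9%, against 0.154% of all promoters and 0.259% of those of genes tested in total mRNA. The 5 promoters are shown in full with the octamers in capitals. They lie on chr20:33686336-33686635 (minus strand), chr3:127598161-127598460 (plus strand), chr6:52284693-52284992 (minus strand), chr2:135876394-135876693 (minus strand) and chr7:100101348-100101647 (minus strand) of GRCh38.p14. In MCM2 and MCM6 an octamer on one strand overlaps one on the other strand, so that a run of 12 capitals holds both.
E2F1: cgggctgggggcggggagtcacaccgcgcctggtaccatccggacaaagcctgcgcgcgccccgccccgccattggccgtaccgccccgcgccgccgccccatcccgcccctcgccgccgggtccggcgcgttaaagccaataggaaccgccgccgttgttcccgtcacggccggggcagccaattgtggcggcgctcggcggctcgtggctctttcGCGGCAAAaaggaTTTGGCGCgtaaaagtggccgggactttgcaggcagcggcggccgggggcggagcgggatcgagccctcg
MCM2: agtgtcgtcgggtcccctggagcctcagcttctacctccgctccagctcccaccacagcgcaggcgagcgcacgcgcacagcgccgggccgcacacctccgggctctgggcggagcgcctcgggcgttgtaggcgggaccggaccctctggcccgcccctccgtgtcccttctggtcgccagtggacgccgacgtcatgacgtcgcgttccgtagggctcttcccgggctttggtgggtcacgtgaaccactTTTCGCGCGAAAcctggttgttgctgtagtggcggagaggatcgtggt
MCM3: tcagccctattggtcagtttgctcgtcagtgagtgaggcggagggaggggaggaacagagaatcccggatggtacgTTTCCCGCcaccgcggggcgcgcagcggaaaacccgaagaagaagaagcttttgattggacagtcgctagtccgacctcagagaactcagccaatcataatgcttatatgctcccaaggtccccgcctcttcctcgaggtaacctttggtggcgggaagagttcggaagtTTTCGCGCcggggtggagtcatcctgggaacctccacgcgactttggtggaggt
MCM6: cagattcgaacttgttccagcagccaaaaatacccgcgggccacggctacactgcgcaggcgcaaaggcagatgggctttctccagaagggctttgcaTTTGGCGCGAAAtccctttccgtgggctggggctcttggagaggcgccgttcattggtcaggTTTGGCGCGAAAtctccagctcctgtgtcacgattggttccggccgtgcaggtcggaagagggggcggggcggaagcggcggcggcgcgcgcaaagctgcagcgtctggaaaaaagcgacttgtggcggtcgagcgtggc
MCM7: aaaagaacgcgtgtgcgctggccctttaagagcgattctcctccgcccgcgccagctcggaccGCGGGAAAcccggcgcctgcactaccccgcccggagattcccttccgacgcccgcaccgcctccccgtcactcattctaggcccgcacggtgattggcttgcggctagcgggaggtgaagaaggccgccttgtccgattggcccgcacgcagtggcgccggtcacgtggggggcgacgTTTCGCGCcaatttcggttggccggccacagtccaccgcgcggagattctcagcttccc

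In the conversion rate, 14 of the 31 genes that could be tested were higher with DMSO and 4sU than without 4sU (45.2%), and 0 were lower. Over all genes tested, 61.5% were higher (4406 of 7170, by limma at an adjusted p under 0.05). The 14 were ORC6, CDT1, MCM3 and MCM7 of origin licensing, MCM10 and GINS3 of helicase activation, PCNA and RFC1 of the clamp and its loader, FEN1, RPA2 and RPA3 of Okazaki fragments and single-strand binding, and RRM2, TK1 and UNG of nucleotide supply and uracil removal. The median log2 change was 1.08 over the 31 genes and 1.15 over all genes. In 16 of the 31 every library with DMSO and 4sU lay above every library without it, compared with 71.1% of all genes tested. The number of calls depended on the libraries kept, and fell to 4 when replicate 1 was left out of both groups, to 8 when replicate 2 was and to 7 when replicate 3 was, of which 3, 8 and 5 were among the 14. Those fits compare 2 with 2 libraries. A gene that was not called is not shown to be unlabelled.

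The conversion rate of these mRNAs with DMSO and 4sU lay around or below that of other genes. No background was subtracted, and it was an uneven part of the rate. The mean with and without 4sU was 0.123% and 0.103% for MCM2, but 0.228% and 0.0309% for GINS3. The positions below are thus those of raw rates and not of the newly made share. The median of the mean rates with DMSO and 4sU was 0.165% over the 31 genes and 0.205% over all genes tested, and without 4sU it was 0.0593% and 0.0579%. Below the median of all genes were 18 of the 31, and 12 were below the lower quartile of 0.134%. By library, 21, 16 and 21 of the 31 were below the median with DMSO and 4sU and 15 were with IAA, so the excess was not seen in every labelled library. Above the upper quartile of 0.347% were 2, CDT1 and MCM3. In the order of mean rates, the ranges of neighbours over the 3 libraries overlapped in all 30 pairs, so the order is coarse.

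**Figure D1:**
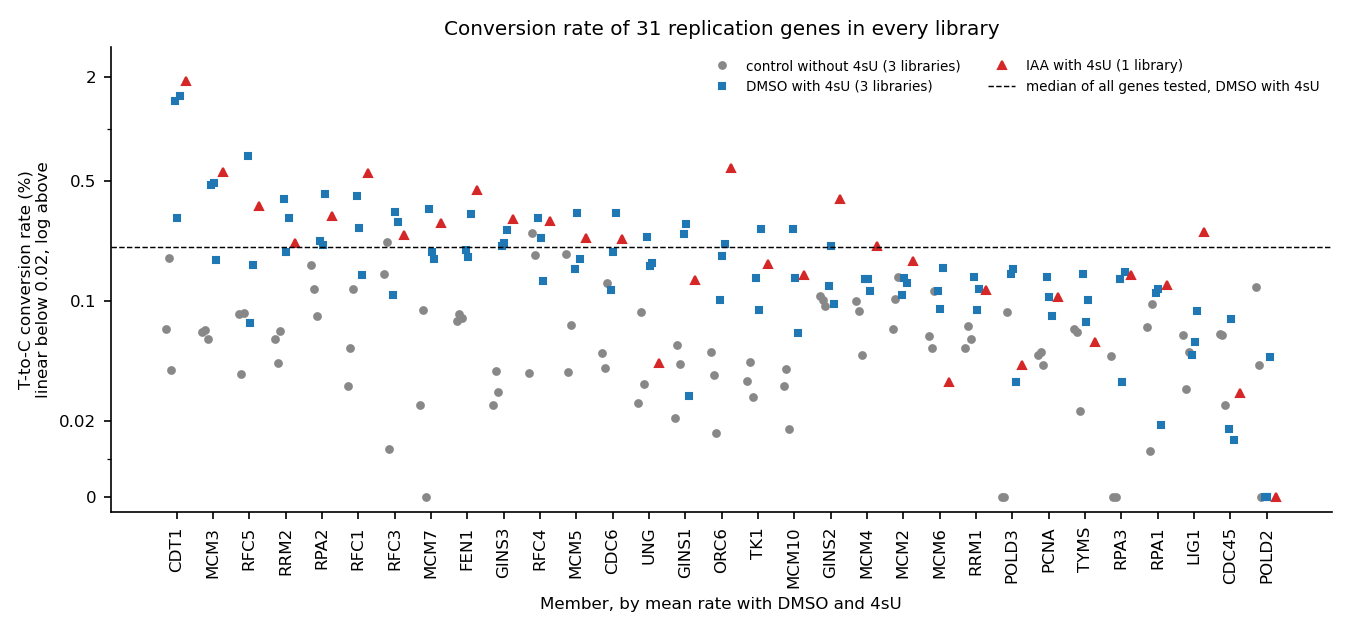
T-to-C conversion rate in percent (vertical axis, linear below 0.02 and logarithmic above) of the 31 genes with at least 200 reads on average, ordered by their mean with DMSO and 4sU. Reads of a gene were summed over its intervals, and LIG1 and POLD3 had fewer than 200 in the interval with most reads. Each point is 1 library, and the dashed line is the median of all genes tested (0.205%). CDT1 stands highest, with a mean of 1.11%, and POLD2 lowest, with 0.0156%.

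CDT1, the licensing factor that is destroyed once S phase begins, had the highest rate. It was 1.46%, 0.303% and 1.55% in the 3 libraries with DMSO and 4sU, and 0.0679%, 0.176% and 0.0395% without 4sU. All labelled libraries were above all unlabelled ones, but replicate 2 was far below the other two. The mean was 1.11% ± 0.697 (SD, n = 3), and the log2 change of 2.83 (standard error 0.66) had an adjusted p of 0.0106 by limma. Without replicate 1 or without replicate 3 the adjusted p was 0.0976 and 0.0775.

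MCM3, a subunit of the MCM helicase, came next, with 0.470%, 0.486% and 0.173% with DMSO and 4sU and 0.0659%, 0.0678% and 0.0599% without 4sU. The groups did not overlap, and the lowest labelled library was replicate 3. Its log2 change was 1.79 (standard error 0.39, adjusted p = 0.00839 by limma), with an adjusted p of 0.0665 without replicate 1 and 0.0507 without replicate 2. The other MCM subunits differed in this measure. MCM7 changed by 1.79 (standard error 0.42, adjusted p = 0.0114 by limma), whereas MCM2, MCM4, MCM5 and MCM6 did not pass, with log2 changes of 0.21, 0.49, 0.90 and 0.44. These differences between subunits were not tested.

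RFC5, a small subunit of the clamp loader, had 0.695%, 0.0736% and 0.162% with DMSO and 4sU and 0.0841%, 0.0373% and 0.0852% without it. The groups overlapped and its high mean rested on replicate 1 (log2 change 1.21, standard error 0.64, adjusted p = 0.131 by limma). RFC1, the large subunit, had 0.406%, 0.263% and 0.142% against 0.0316%, 0.0526% and 0.116%. Here the groups were apart, with a log2 change of 1.43 (standard error 0.42, adjusted p = 0.0231 by limma). This call was lost without replicate 1 (adjusted p = 0.142), without replicate 2 (0.108) and without the first control library alone (0.0744).

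RRM2, the small subunit of ribonucleotide reductase that supplies deoxynucleotides, had 0.391%, 0.191% and 0.301% with DMSO and 4sU and 0.0595%, 0.0431% and 0.0667% without 4sU. The groups were well apart (log2 change 1.66, standard error 0.30, adjusted p = 0.00434 by limma). Its partner RRM1 had 0.136%, 0.0886% and 0.116% against 0.0528%, 0.0710% and 0.0597%. These groups did not overlap either, but the log2 change of 0.55 (standard error 0.22) had an adjusted p of 0.0635 by limma.

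RPA2, part of the protein RPA that coats single-stranded DNA, had 0.222%, 0.210% and 0.418% with DMSO and 4sU and 0.161%, 0.116% and 0.0816% without it. The groups were apart, but its call was the weakest of the 14 (log2 change 0.95, standard error 0.34, adjusted p = 0.0475 by limma). It was lost without each replicate number in turn (adjusted p from 0.0766 to 0.279). The change was then 1.24, 1.10 and 0.51 without replicates 1, 2 and 3, so it was smaller in the last of these fits alone. RPA3 had 0.134%, 0.0337% and 0.148% against 0.0478%, 0% and 0%. The labelled replicate 2 was below the first control library, and the log2 change was 1.21 (standard error 0.43, adjusted p = 0.0451 by limma). This call was lost without replicate 1 (change 1.36, adjusted p = 0.0830) and without replicate 3 (change 0.83, adjusted p = 0.240).

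RPA1, the largest RPA subunit, had 0.111%, 0.117% and 0.0189% against 0.0697%, 0.0121% and 0.0962%. The groups overlapped, with a log2 change of 0.26 (standard error 0.47, adjusted p = 0.627 by limma). LIG1, the ligase that joins Okazaki fragments, had 0.0481%, 0.0572% and 0.0865% against 0.0630%, 0.0304% and 0.0502%. These groups overlapped too (log2 change 0.22, standard error 0.25, adjusted p = 0.445 by limma). FEN1, the nuclease that trims the flaps of these fragments, was apart from them, with 0.198%, 0.180% and 0.319% against 0.0763%, 0.0837% and 0.0789% (log2 change 1.09, standard error 0.27, adjusted p = 0.0130 by limma).

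TYMS, which makes thymidylate, had 0.142%, 0.0747% and 0.101% with DMSO and 4sU and 0.0687%, 0.0657% and 0.0226% without it. The groups did not overlap (log2 change 0.62, standard error 0.30, adjusted p = 0.100 by limma). CDC45, which joins the MCM helicase at its activation, had 0.0178%, 0.0786% and 0.0150% against 0.0637%, 0.0632% and 0.0248%. The groups overlapped (log2 change -0.26, standard error 0.34, adjusted p = 0.514 by limma). Its rate is the mean of 2 intervals, and in the interval with most reads the means were 0.0742% with DMSO and 4sU and 0.101% without it. POLD2, a subunit of polymerase delta, was lowest of the 31, with 0%, 0% and 0.0469% against 0.120%, 0.0423% and 0%. It overlapped as well (log2 change -0.56, standard error 0.49, adjusted p = 0.323 by limma). Without replicate 3 its log2 change was -1.32 with an adjusted p of 0.0471, and without replicate 1 it was 0.035.

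The smallest adjusted p of the 31 was that of GINS3, a subunit of the GINS complex, with 0.208%, 0.216% and 0.259% with DMSO and 4sU and 0.0245%, 0.0387% and 0.0295% without it. Its groups were far apart (log2 change 1.78, standard error 0.22, adjusted p = 0.00115 by limma). GINS1 and GINS2 overlapped between groups, with log2 changes of 1.15 and 0.31. GINS3 was singled out after its values were seen.

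The 11 other genes had fewer than 200 reads on average, summed over intervals, and were not tested in the rate. They were E2F2, POLE2, PRIM1, E2F1, POLD1, ORC1, POLA2, POLE, RFC2, GINS4 and POLA1, with 31.3 (E2F2) to 196 (POLA1) reads on average. They include 6 of the 8 polymerase genes and both E2F factors. LIG1 and POLD3 were tested on summed reads, but had fewer than 200 on average in the interval with most reads. With that interval alone 29 genes were tested. E2F1 had 0%, 0.811% and 0.0428% with DMSO and 4sU, and ORC1, a subunit of ORC, had 0.516%, 0.492% and 0.340%. For ORC1 these lay above the values without 4sU of 0%, 0.0791% and 0.0896%, and for E2F1 the groups overlapped.

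Of 48 other replication genes, 34 could be tested and 17 were higher (50.0%), with a median log2 change of 1.07. The highest mean rates were those of E2F3 (1.28% ± 0.271, SD, n = 3), an E2F activator, CDC25A (0.675% ± 0.277), a phosphatase that activates CDK2, and DTL (0.581% ± 0.0552), which directs CDT1 to degradation. DTL was nearly as high without 4sU, with a mean of 0.472%, and did not pass the test. The lowest were PRIM2 (0.0900% ± 0.0771), DCK (0.0805% ± 0.0725) and TIMELESS (0.0708% ± 0.00596). Of 30 mitosis genes, 27 could be tested and 16 were higher (59.3%).

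In total mRNA, 0 of the 42 genes changed with 4sU, against 1.58% of all genes tested (188 of 11878, all lower with 4sU, limma on log2(CPM + 1)). edgeR and DESeq2 on the recovered reads also called 0 of the 42, and 1 gene, RFC4, was under an unadjusted p of 0.05 in each of the 3. The log2 changes ran from -0.32 (GINS1) to 0.51 (RRM1), with a median of 0.09 against 0.04 over all genes. The 95% intervals lay within 1 log2 unit of 0 for 40 of the 42 genes, and the bounds ran from -0.75 to 1.27. The groups did not overlap for 3 of the 42 genes, MCM4, MCM6 and RFC4, against 19.3% of all genes tested. Libraries with the same replicate number varied together in total mRNA over all genes, but for replicate 3 not over the 42 genes (correlation 0.0771). In all 3 such pairs the library with 4sU was higher for 16 of the 42 genes (38.1%), against 26.6% of all genes, and lower for 3 (7.14%, against 16.1%). This count was chosen after seeing the data. With the pairs as a block 0 genes passed, and 3 (RFC4, RRM1 and UNG) were under an unadjusted p of 0.05.

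RRM1 had the largest difference, with 181, 290 and 228 CPM with DMSO and 4sU and 90.1, 214 and 201 CPM without it. The groups overlapped, and the first control library was far below the rest (log2 change 0.51, standard error 0.34, adjusted p = 0.666 by limma). POLD2 had 13.6, 22.6 and 17.3 CPM against 6.43, 18.2 and 16.3, again with the first control library lowest (log2 change 0.42, standard error 0.36, adjusted p = 0.746 by limma). Without that library the change was 0.06 for RRM1 and -0.06 for POLD2, and with replicate 1 left out of both groups it was 0.20 and 0.08. Within the same-numbered pairs both genes were higher with 4sU in 3 of 3.

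RFC4, a subunit of the clamp loader, had 49.7, 39.6 and 37.4 CPM with DMSO and 4sU and 26.5, 36.1 and 25.1 CPM without it. All labelled libraries were above the unlabelled ones, by little in the case of replicate 3 (log2 change 0.49, standard error 0.19, 95% interval 0.06 to 0.93, adjusted p = 0.387 by limma). Without replicate 1 of both groups its change was 0.23. UNG, the glycosylase that removes uracil from DNA, had 36.1, 23.0 and 28.7 against 24.7, 19.7 and 20.0 CPM. Its groups overlapped at replicate 2, and it was higher with 4sU in 3 of 3 pairs (log2 change 0.39, standard error 0.19, adjusted p = 0.522 by limma).

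PRIM1, the catalytic subunit of primase, was low in every library, with 3.05, 1.92 and 2.69 against 2.27, 1.61 and 1.21 CPM. The groups overlapped, and it was higher with 4sU in 3 of 3 pairs (log2 change 0.39, standard error 0.21, adjusted p = 0.593 by limma). GINS1 had 10.3, 15.5 and 14.2 against 19.5, 15.3 and 14.5 CPM. It also overlapped, and the highest value was the first control library (log2 change -0.32, standard error 0.19, adjusted p = 0.633 by limma, and a change of -0.12 without replicate 1 of both groups). Of the 48 other replication genes 0 passed, with log2 changes from -1.09 to 0.39.

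The libraries differed among themselves in these genes. The first control library was the farthest from its group mean for 30 of the 42 genes, as it was for 60.3% of all genes. It was low in RRM1 and POLD2, as given above. It was high in TK1, the thymidine kinase of S phase, with 28.7 CPM against 13.3 and 12.7 in the other control libraries, and in RPA3, with 19.9 against 9.43 and 7.90. It was also high in MCM3, with 63.9 CPM against at most 32.6. The 42 genes together did not shift with it, as the median deviation from the group mean was 0.05 in log2(CPM + 1), with 25 genes above 0. In the other libraries without 4sU it was -0.02 and -0.02, and with DMSO and 4sU it was -0.06, 0.01 and 0.02.

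The mitosis genes moved between the same libraries by more. Their median deviations were -0.27, 0.28 and 0.08 without 4sU and -0.36, 0.29 and 0.02 with DMSO and 4sU for replicates 1, 2 and 3, and -0.25 in the IAA library. In replicate 2 of both groups 26 of the 30 mitosis genes were above their group mean. Over all genes this was so for 5915 of 11881 without 4sU and 5894 with DMSO and 4sU. The difference between the lists was not tested.

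**Figure D2:**
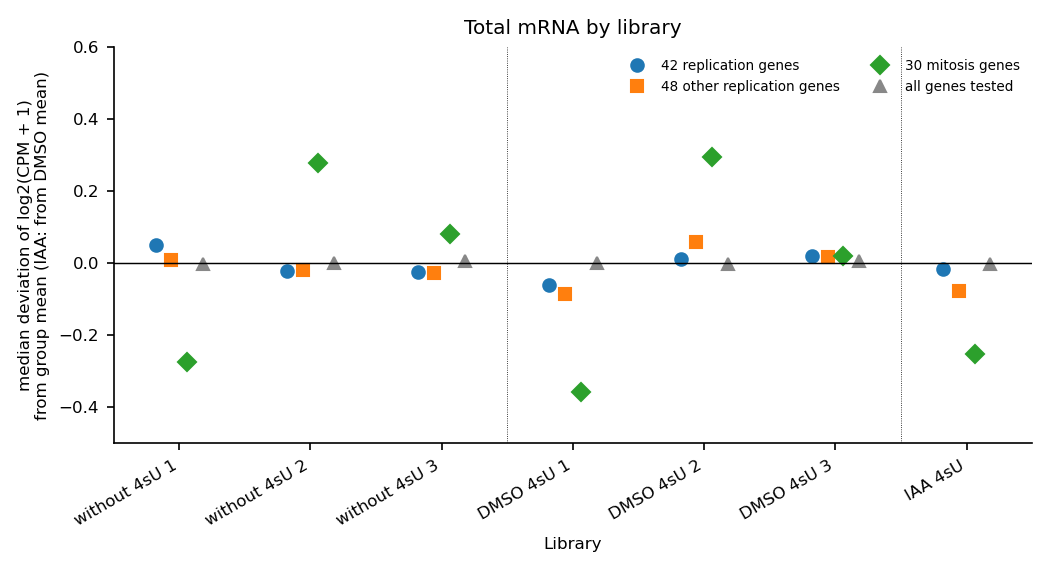
Median deviation of total mRNA from the group mean (vertical axis, log2(CPM + 1)) in each library, for 42 replication genes, 48 other replication genes, 30 mitosis genes and all genes tested, with the IAA library set against the mean of DMSO with 4sU. The 42 genes stay between -0.06 and 0.05, and the mitosis genes run from -0.36 to 0.29.

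With IAA the conversion rate of these genes differed from DMSO about as much as the DMSO libraries differed from each other. Of the genes tested above, POLD2 was left out here, as its rate was above 0 in fewer than 2 of the 4 labelled libraries. Over the 30 genes compared, the median log2 difference of the IAA library from the mean of DMSO with 4sU was 0.09, and -0.01 over all genes. Each DMSO library against the other two gave 0.02, 0.12 and 0.07. Above all 3 DMSO libraries were 9 of the 30 genes, against 23.9% of all genes, and below them 6 of 30, against 25.9%. A gene was counted as moved if it lay outside the DMSO range and at least 1 log2 unit from the mean, which was so for 5 of 30 genes, against 11.2% of all genes tested. Each DMSO library set in the same way against the other 3 labelled libraries gave 4, 6 and 5 of the 30 genes, and 12.4%, 13.2% and 10.8% of all genes. There is 1 IAA library, so none of these differences has a replicate check.

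The 5 genes were ORC6, LIG1 and GINS2, which were higher, and MCM6 and UNG, which were lower. ORC6, a subunit of ORC, had a rate of 0.592% with IAA and 0.100%, 0.182% and 0.213% with DMSO, a log2 difference of 1.49. LIG1 had 0.2505% with IAA against 0.0481%, 0.0572% and 0.0865%, a difference of 1.29. Its signal is a sum over 2 intervals, and the one with most reads held 14.1 of 28.2 CPM with IAA. GINS2 had 0.391% against 0.122%, 0.209% and 0.0959%, a difference of 1.12. In all 3 the IAA value was far above the highest DMSO library. MCM6 had 0.0335% with IAA against 0.114%, 0.0895% and 0.156% with DMSO, a difference of -1.13. UNG had 0.0434% against 0.233%, 0.159% and 0.167%, a difference of -1.45. Both IAA values were below or among those without 4sU, which were 0.0618%, 0.0531% and 0.114% for MCM6 and 0.0253%, 0.0859% and 0.0328% for UNG. With a pseudocount of 0.002 in place of 0.0005, 1 gene moved, ORC6.

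By role, the 5 genes of nucleotide supply and uracil removal were all below the DMSO mean, with a median of -0.46, and the 5 genes of Okazaki fragments and single-strand binding were all above it, with a median of 0.36. Above it were also 8 of 9 licensing genes (median 0.22) and 3 of 5 genes of the clamp and its loader (median 0.26). Of 5 helicase activation genes 2 were above it (median -0.11), and the 1 polymerase gene, POLD3, was below it. Over all genes 3512 of 7166 were above it, and these counts come from 1 IAA library. Most of these differences were small, and RRM1 (-0.10), TK1 (-0.03) and RPA2 (0.04) lay within the DMSO range. Among the DMSO libraries, replicate 2 had the lowest rate in all 5 genes of nucleotide supply and uracil removal. That count uses raw rates, unlike the centred differences from the DMSO mean given above, and the sides by role were not tested. In the 5 genes of Okazaki fragments and single-strand binding the lowest DMSO library differed between genes.

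In total mRNA, 0 of the 42 genes moved with IAA by the same rule, against 0.229% of all genes tested. The median log2 difference was -0.02 and it was -0.09, 0.02 and 0.03 for the DMSO libraries against their other two. Above all 3 DMSO libraries were 8 genes (19.0%, against 21.0% of all genes), and below them 9 (21.4%, against 20.7%). LIG1 had the largest difference, with 28.2 CPM with IAA and 19.7, 14.9 and 17.8 CPM with DMSO (0.59). It was thus above the DMSO range in both measures. RRM1 lay lowest, with 170 CPM against 181, 290 and 228 (-0.51), just below the nearest DMSO library. The 6 helicase activation genes were all below the DMSO mean, with a median of -0.13, whereas 49.5% of all genes were above it. The other roles were mixed, with 6 of 10 licensing genes, 5 of 8 polymerase genes and 3 of 6 clamp and loader genes above it. Above it were also 2 of 5 genes of Okazaki fragments, 2 of 5 of nucleotide supply and 1 of 2 E2F factors. Among the DMSO libraries, 0 of the 6 helicase activation genes were above the mean of the 3 in replicate 1 (median -0.18). In replicate 3, 6 of 6 were (median 0.14). Over all genes these counts were 5974 and 6162 of 11881. The counts by role were not tested.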

How the data were processed

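Total RNA of MCF10A cells was analysed by SLAM-Seq in 9 samples. The authors ran the Nextflow pipeline for SLAM-Seq (build hg19 in the submitters' processing notes), and further settings are not given in the sources used here. The deposited table holds, per 3′ interval of a RefSeq transcript, the conversion rate as a fraction and a coverage signal that the authors label CPM. The T coverage behind a rate is unknown. The signal was a whole multiple of 1 read in 100% of non-zero values (tolerance 0.01), which gave reads. Rows were matched to symbols by RefSeq identifier (97.7%). Repeated intervals were used once. Rates of distinct intervals of a gene were averaged and CPM summed, which concerned 8 of the 42 genes (CDC45, LIG1, MCM2, ORC6, POLD1, POLD3, POLE2 and RFC3) and can count reads of nested intervals more than once. Of the columns with values per sample, 0 were left unused.

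The rate was tested with limma (version 3.58.1 under R 4.3.3), after log2(rate + 0.0005), where at least 3 of 6 libraries had a non-zero rate and reads averaged at least 200. Total mRNA was tested with limma on log2(CPM + 1) with TMM library sizes for genes with a mean CPM of at least 0.5, and alternatively with edgeR 4.0.16 and DESeq2 1.42.0 on the reads. A pseudocount understates the change of low genes. p-values were adjusted by Benjamini-Hochberg over all genes. IAA rates were centred on each library's median over the genes compared. These had a non-zero rate in at least 2 of 4 labelled libraries and at least 200 reads on average over them. In total mRNA the deviations of same-numbered libraries correlated over all genes at 0.382, 0.308 and 0.343, so the numbers pair them. In the rates they correlated at 0.0060, -0.0134 and 0.00732, so the numbers do not pair them there. Over the 42 genes alone the total mRNA gave 0.501, 0.433 and 0.0771, so for replicate 3 the pairing was not seen in these genes.

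The fits were tested on simulated data with 200 changed genes. For the rates a change by a factor of 4 was simulated first and was mostly missed. A factor of 9, added after that was seen, was mostly recovered. Few genes change in this simulation and most do in the data, so the adjusted threshold is stricter in the simulation, and it does not give the power of the comparison made here. In total mRNA a factor of 3 was mostly recovered by limma, edgeR and DESeq2.

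The genes and lists were chosen with earlier results of these data known. Named with values in every library were the 6 highest and 6 lowest rates among genes tested, the 6 largest changes in total mRNA, and all genes moved with IAA. For other replication genes these were the 3 highest and 3 lowest rates. Python 3.11.15, pandas 2.3.3, numpy 2.4.6 and matplotlib 3.10.9 were used.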

Additional observations from a re-analysis of the deposited data

How the results depend on the processing

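The count of 14 genes with a higher rate was 11 to 16 in the settings other than those that left out a replicate number, where it was 4 to 8. The median change of 1.08 was 1.39 with a pseudocount of 0.0001, 0.48 with 0.002, 0.93 without a minimum of reads, 0.95 with a minimum of 50 reads, 0.69 to 0.92 with a replicate number left out of both groups, and 1.07 without the first control library. RPA1 reversed to -0.33 without replicate 2, and POLD2 to 0.035 without replicate 1, with a range over left-out replicates of -1.32 to 0.035. In total mRNA POLD2 reversed to -0.060 without the first control library and was at most 0.62 with another left out. That alternative, and the read-weighted mean for IAA, were chosen after seeing the data. With the replicate block 12 genes had a higher rate (RPA2, RFC1 and PCNA were lost, the first at an adjusted p of 0.0897 and RFC1 at 0.0534, and CDC6 was gained), and 0 of 42 changed in total mRNA. The block changed no other call among the 42 genes in either measure. Over all genes, total mRNA gave 108 calls with a mean CPM of at least 5, 415 with DESeq2, 26 to 472 with a replicate number left out, and 288 without the first control library.

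For IAA the median of 0.09 in the rate was 0.22 without centring, which shifted the median of all genes to 0.11, 0.15 without a minimum of reads, and 0.050 to 0.18 with a DMSO library left out. The genes moved were 1 with a pseudocount of 0.002 and 8 without a minimum of reads. In total mRNA the median was 0.065 with library totals. The cause was not tested. No paired analysis was possible because, for IAA, the replicate number of the single library is not known. Rates of genes under 200 reads on average were not tested.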
